A study of Mus musculus with 12 samples.

Results

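The 10 genes described here encode the kinases, TRAF adaptors and feedback inhibitors that stand upstream of the NF-κB transcription factors. They were taken by symbol from the table of 39179 genes, where all 10 were found, and comprise the kinase genes *Chuk*, *Ikbkb*, *Ikbkg* and *Map3k14*, the adaptor and ligase genes *Traf1*, *Traf2*, *Traf3* and *Birc3*, and the inhibitor genes *Tnfaip3* and *Cyld*. Their RNA was measured in mouse pancreatic stellate cells (PSCs), fibroblast-like cells of the pancreas, labelled as strain C57BL/6. By the study's list of cell lines, the PSCs were immortalised with SV40 and were 1 clone. PSCs marked with mCherry were grown for 72 h alone (mono-PSCs), with pancreatic cancer cells (PCCs) marked with EGFP (2W-PSCs), or with these PCCs and macrophages marked with TagBFP (3W-PSCs), and were then sorted as cells with mCherry and, by the study's outline of the sort, without EGFP or TagBFP. Each culture gave 4 libraries, described by the submitters as biological replicates. All cultures were kept in medium with little serum, the PCCs were a mouse line, and the macrophages were the RAW264.7 line, so each cell type stands for 1 cell line.

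In the canonical arm of NF-κB signalling, TNF, IL-1 and Toll-like receptors recruit TRAF adaptors and ubiquitin ligases, and the ubiquitin chains these build activate the IKK complex of IKKα (*Chuk*), IKKβ (*Ikbkb*) and NEMO (*Ikbkg*). IKK then marks the IκB proteins for degradation and frees NF-κB. In the non-canonical arm the kinase NIK (*Map3k14*) acts through IKKα, and in resting cells TRAF2, TRAF3 and the cIAP ligases keep NIK low. A20 (*Tnfaip3*) and CYLD remove or edit ubiquitin chains and so brake the pathway, and *Tnfaip3*, *Birc3* and *Traf1* are themselves known NF-κB target genes. In fibroblasts of the pancreas, NF-κB is known for driving inflammatory cytokine genes.

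Promoter sequence was examined because several of these genes are known NF-κB targets. The 5 windows below each hold the 250 bases before a RefSeq transcript start (GRCm38.p6) and are written 5′ to 3′ on the strand of the gene. *Tnfaip3*, *Traf3* and *Cyld* are shown because they were the genes with a match to the κB consensus motif of 10 bases, read here as GGG, a purine, any base, A or T, 2 pyrimidines and CC. It was searched on both strands, so that a match on the other strand reads from GG to CCC. *Birc3* and *Traf1* are shown because their RNA changed and their windows held no match to this consensus. Capitals mark the consensus matches.

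Tnfaip3 (chr10:19015411-19015660, minus strand): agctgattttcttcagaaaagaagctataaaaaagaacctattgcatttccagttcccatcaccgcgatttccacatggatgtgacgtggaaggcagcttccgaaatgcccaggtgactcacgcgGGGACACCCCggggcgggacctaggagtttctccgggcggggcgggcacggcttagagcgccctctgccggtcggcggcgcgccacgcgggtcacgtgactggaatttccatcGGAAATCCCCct
Traf3 (chr12:111166120-111166369, plus strand): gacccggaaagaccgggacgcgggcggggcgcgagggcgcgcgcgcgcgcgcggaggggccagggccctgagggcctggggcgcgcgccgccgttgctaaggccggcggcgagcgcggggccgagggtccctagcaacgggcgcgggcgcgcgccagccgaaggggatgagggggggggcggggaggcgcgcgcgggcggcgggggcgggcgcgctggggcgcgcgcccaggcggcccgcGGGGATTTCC
Cyld (chr8:88696778-88697027, plus strand): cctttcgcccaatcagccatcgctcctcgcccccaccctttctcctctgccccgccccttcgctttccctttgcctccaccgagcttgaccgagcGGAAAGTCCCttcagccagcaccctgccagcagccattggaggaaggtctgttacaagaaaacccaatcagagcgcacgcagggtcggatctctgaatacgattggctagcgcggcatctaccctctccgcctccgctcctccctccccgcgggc
Birc3 (chr9:7873171-7873420, minus strand): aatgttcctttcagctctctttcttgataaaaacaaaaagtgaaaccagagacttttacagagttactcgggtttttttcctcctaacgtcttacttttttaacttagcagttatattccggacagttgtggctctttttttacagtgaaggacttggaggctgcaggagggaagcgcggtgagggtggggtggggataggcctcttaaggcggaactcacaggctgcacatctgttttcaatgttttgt
Traf1 (chr2:34961773-34962022, minus strand): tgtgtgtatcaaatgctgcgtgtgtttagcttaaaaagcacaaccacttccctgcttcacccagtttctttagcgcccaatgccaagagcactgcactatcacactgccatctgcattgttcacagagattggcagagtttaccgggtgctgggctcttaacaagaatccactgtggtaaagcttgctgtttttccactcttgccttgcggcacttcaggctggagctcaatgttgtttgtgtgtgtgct

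Both *Tnfaip3* matches lay in its upstream window, GGGACACCCC at 125 to 116 bases and GGAAATCCCC at 12 to 3 bases before the start. The *Traf3* match, GGGGATTTCC, ended at the last base before the start, and that of *Cyld*, GGAAAGTCCC, lay 155 to 146 bases before it. A consensus match occurred in 3 of 13 windows of 9 of these genes, against 3.9% of all 32851 windows of the same length. A looser motif, GGG, any 5 bases and CC, which contains the consensus and was added after the data were seen, occurred in 10 of the 13 windows and in 45.8% of all windows. It was found in the printed *Birc3* window and not in that of *Traf1*. *Ikbkb* was not among the genes with a window. The motif was read as letters only, and binding was not measured.

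Libraries had total counts of 4561817 to 8093368. Levels are given as CPM, the counts of a gene relative to the total of its library, with the totals scaled by the TMM method. Because the kit reads only the 3′ end of each transcript, the level of a gene was compared between cultures and not with the level of another gene. The 2W-PSC replicate 2 stood apart, with rank correlations of 0.840 to 0.911 to the other 2W-PSC libraries, against 0.941 to 0.986 for the other pairs within a culture. Together, 12 stellate cell and fibroblast markers summed to 7993 to 10463 CPM in mono-PSCs, 9338 to 10063 in 2W-PSCs and 5409 to 6626 CPM in 3W-PSCs. Not all of them were abundant, with *Lum* at 1.37 CPM or less and *Des* at 3.32 CPM or less in every library. The sum of 12 macrophage markers was 1.76 to 7.64 CPM in mono-PSCs, 2.53 to 10.5 in 2W-PSCs and 12.3 to 51.3 CPM in 3W-PSCs. Of these markers, *Adgre1* had 0 counts in every library. *Ptprc*, *Tyrobp*, *Laptm5*, *Cd52* and *Spi1* had 0 counts in every mono-PSC and 2W-PSC library. Their counts in the 4 3W-PSC libraries together were 26, 28, 83, 13 and 16. The sum of 10 epithelial markers was 0.484 to 2.46 CPM in mono-PSCs, 74.99 to 148 in 2W-PSCs and 51.8 to 91.2 CPM in 3W-PSCs. Among these, *Epcam*, *Cldn4*, *Cldn7* and *Esrp1* had 0 counts in every 2W-PSC library. In RNA from a whole sorted population, a change in the share of cells that express a gene and a change in RNA per cell cannot be told apart.

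At the step where macrophages joined the co-culture, 4 of the 10 genes rose. Between 3W-PSCs and 2W-PSCs, *Traf1*, *Birc3*, *Tnfaip3* and *Cyld* were higher in 3W-PSCs at an adjusted p under 0.05 (edgeR, adjusted over all genes tested), none was lower, and the other 6 did not pass. Over all 11513 genes tested in this comparison, 5.73% were called higher and 4.95% lower. *Traf1*, *Birc3* and *Tnfaip3* passed the filter on low counts through their 3W-PSC libraries, so hardly any call but higher was open to them. The 10 genes were also chosen with earlier results of these data known, so their share is a description. The median log2 fold change of the 10 genes was 0.75, against 0.0025 over all genes tested. The 3W-PSC libraries lay wholly above the 2W-PSC libraries for the same 4 genes, whereas 21.3% of all genes tested did not overlap between these cultures. Of the 10 genes, 6 had an unadjusted edgeR p under 0.05 with a higher level and 0 with a lower one. No share over all genes is given here for that cut-off. DESeq2 called 5 higher and 0 lower, beside 903 of 17876 genes called higher over the whole table. Without 2W-PSC replicate 2, 6 were called, with *Chuk* and *Traf3* added, while the genes called higher over the whole table rose from 660 of 11513 to 1098 of 11736. Without 3W-PSC replicate 1, 3W-PSC replicate 2 or 2W-PSC replicate 4, the calls left were the 2 of *Traf1* and *Tnfaip3*, and 346 of 11680, 330 of 11693 and 404 of 11717 genes were called higher in all.

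The addition of PCCs alone was accompanied by no called change. From mono-PSCs to 2W-PSCs, 7 of the genes passed the filter on low counts. Of these, edgeR called 0, and 0 had an unadjusted edgeR p under 0.05, for which no share over all genes is given. DESeq2 called 0, beside 277 of 17135 genes over the whole table. Few genes were called at this step, 0.839% of 11199 tested higher and 0.152% lower, and 5.73% did not overlap, against 0 of the 10 genes. *Traf1*, *Birc3* and *Tnfaip3* were too low in both cultures to pass the filter.

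With both partners present, *Chuk*, *Traf1*, *Traf3*, *Birc3* and *Tnfaip3* were higher in 3W-PSCs than mono-PSCs and none was lower. Over all 11551 genes tested here, 13.4% were called higher, 13.0% lower, and 25.9% did not overlap. Here too, *Traf1*, *Birc3* and *Tnfaip3* passed the filter on low counts through their 3W-PSC libraries. The 10 genes had a median log2 fold change of 0.66, against 0.0116 over all genes tested, and *Traf1*, *Birc3* and *Tnfaip3* were the 3 that did not overlap. Both comparisons with 3W-PSCs use the same 4 3W-PSC libraries, so they are not independent of each other.

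**Figure D1:**
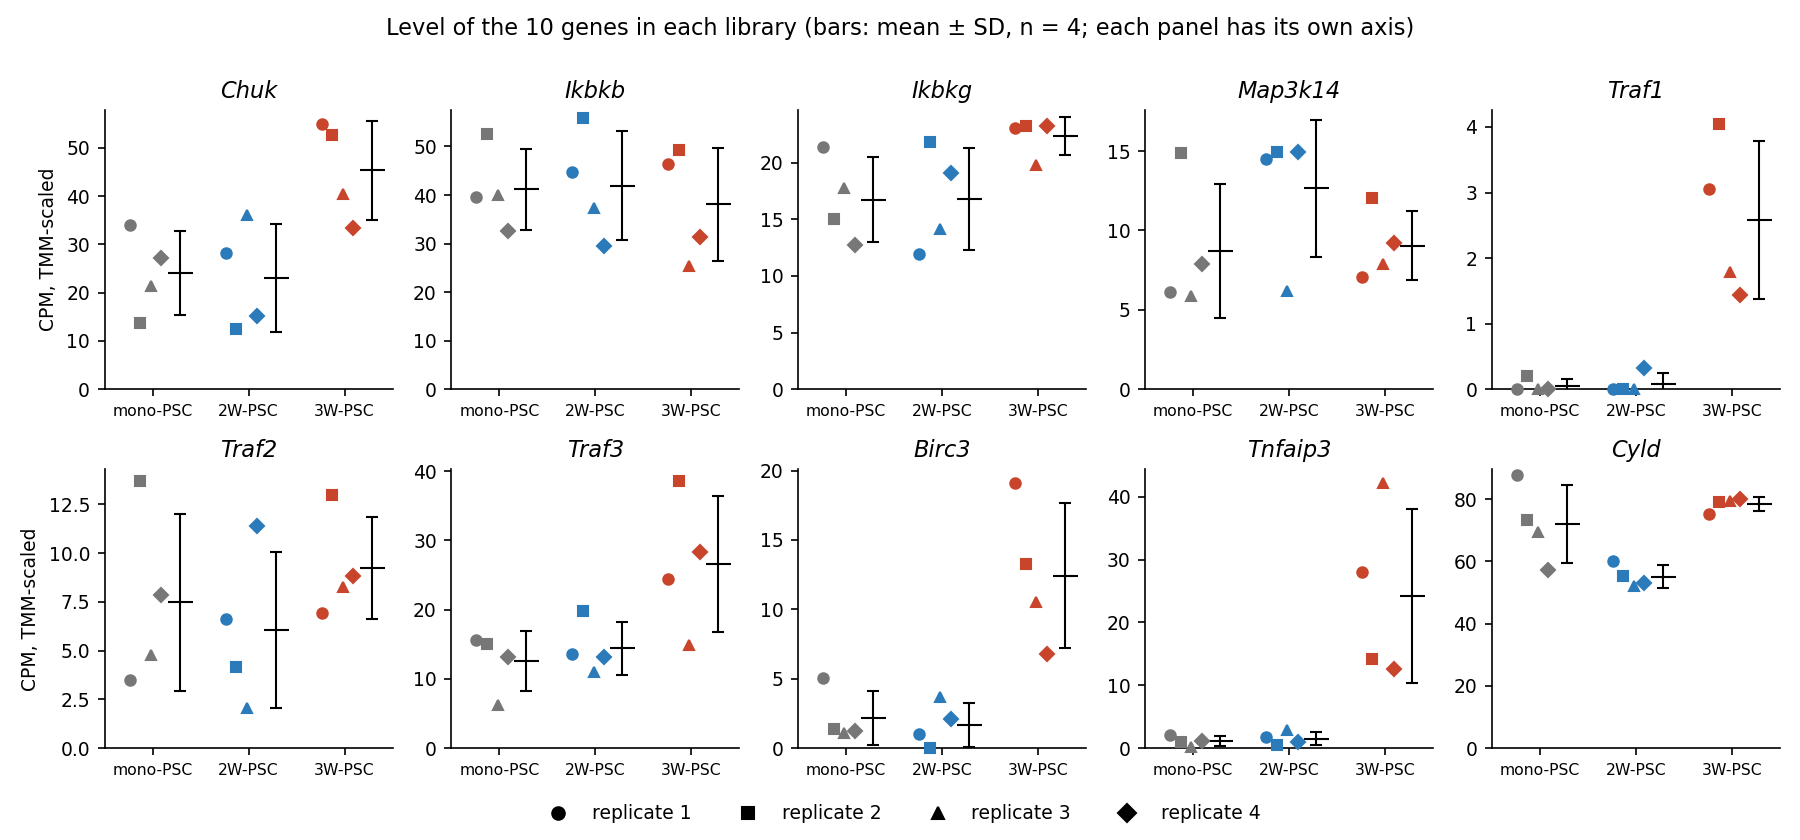
Level of each gene in CPM (vertical axes, starting at 0, each panel with its own range) in the 4 libraries of mono-PSCs, 2W-PSCs and 3W-PSCs, with symbols for the replicate number and bars for the mean ± SD. *Traf1*, *Birc3* and *Tnfaip3* are at 5.09 CPM or less in every mono-PSC and 2W-PSC library and, for each gene, higher in all 4 3W-PSC libraries, whereas *Ikbkb*, *Map3k14* and *Traf2* overlap across the 3 cultures.

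**Figure D2:**
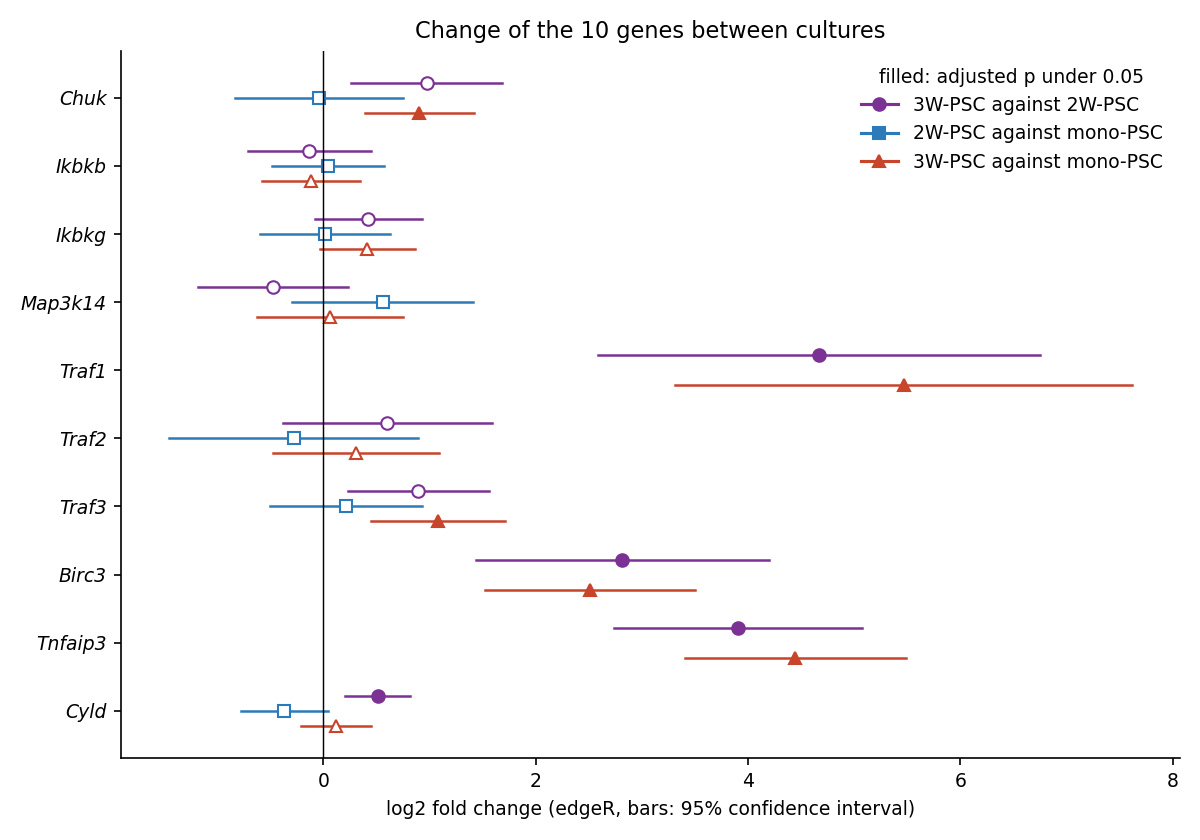
Log2 fold change of each gene in the 3 comparisons (horizontal axis), with 95% confidence intervals from edgeR as bars and filled symbols for an adjusted p under 0.05. The intervals of *Traf1*, *Birc3* and *Tnfaip3* in both comparisons with 3W-PSCs lie above 1, and those of the 7 genes tested between 2W-PSCs and mono-PSCs all include 0.

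Among the kinases, *Chuk* was the only gene called in any comparison. *Chuk*, which encodes IKKα and lies at chr19:44073335-44107480 (GRCm38, minus strand), was at 34.1, 13.7, 21.3 and 27.2 CPM in mono-PSC replicates 1 to 4, at 28.3, 12.5, 36.1 and 15.3 CPM in 2W-PSCs, and at 55.0, 52.7, 40.5 and 33.4 CPM in 3W-PSCs. The lowest 3W-PSC library fell just within the range of each of the other cultures, below mono-PSC replicate 1 and 2W-PSC replicate 3. The mean (± SD, n = 4) was 45.4 ± 10.2 CPM in 3W-PSCs, against 24.1 ± 8.65 in mono-PSCs and 23.1 ± 11.1 in 2W-PSCs. Against mono-PSCs, *Chuk* was higher by a log2 fold change of 0.90 ± 0.24 (SE, edgeR adjusted p = 0.0108), and this call ended when all 12 libraries shared a fit (adjusted p = 0.0626). Against 2W-PSCs the log2 fold change was 0.97 ± 0.32 and did not pass (edgeR adjusted p = 0.0799), whereas DESeq2 gave an adjusted p of 0.0398. It passed in edgeR when 2W-PSC replicate 2 (adjusted p = 0.0486) or 2W-PSC replicate 3 (adjusted p = 0.0260) was left out.

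The other IKK subunits did not pass in any comparison. *Ikbkb*, the gene of IKKβ at chr8:22659212-22706589 on the minus strand, was at 39.5, 52.5, 39.9 and 32.7 CPM in mono-PSCs, 44.8, 55.9, 37.4 and 29.5 in 2W-PSCs and 46.5, 49.3, 25.3 and 31.3 CPM in 3W-PSCs. The 3 cultures overlapped throughout, and between 3W-PSCs and 2W-PSCs the log2 fold change was -0.13, with a 95% confidence interval of -0.71 to 0.45 (edgeR adjusted p = 0.795). *Ikbkg*, the gene of the scaffold NEMO at chrX:74393290-74453854 on the plus strand, had a mean (± SD, n = 4) of 22.4 ± 1.68 CPM in 3W-PSCs, against 16.8 ± 4.51 in 2W-PSCs and 16.7 ± 3.74 in mono-PSCs. Its 3W-PSC libraries lay at 19.9 to 23.3 CPM, close together and at the upper end of the 11.97 to 21.8 CPM of 2W-PSCs, and the log2 fold change was 0.42, with an interval of -0.078 to 0.93 (edgeR adjusted p = 0.267). In the annotation, 418 exonic bases of *Ikbkg* lie opposite *G6pdx*, and whether strand was used in counting is not given in the sources used here.

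As *Chuk* rose against mono-PSCs and *Ikbkb* did not pass, the ratio of their counts within each library was taken, a measure that does not depend on library scaling and was chosen after the levels were seen. The ratio was 1.18, 1.07, 1.60 and 1.07 in 3W-PSCs, 0.632, 0.224, 0.966 and 0.516 in 2W-PSCs and 0.862, 0.261, 0.533 and 0.833 in mono-PSCs. All 3W-PSC libraries lay above all libraries of the other cultures. Because the pair was chosen for its levels, the ratio restates them as a description, and because it compares 3′ counts it does not show which kinase was more abundant.

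*Map3k14*, the gene of NIK at chr11:103219762-103267472 on the minus strand, was at 14.5, 15.0, 6.21 and 14.9 CPM in 2W-PSCs, at 6.14, 14.9, 5.86 and 7.86 in mono-PSCs and at 7.04, 12.03, 7.89 and 9.22 CPM in 3W-PSCs. Its mean (± SD, n = 4) was highest in 2W-PSCs, at 12.7 ± 4.30 CPM against 8.69 ± 4.22 in mono-PSCs and 9.05 ± 2.18 in 3W-PSCs, but all 3 cultures overlapped. The log2 fold change was 0.56 (95% confidence interval -0.29 to 1.41) from mono-PSCs to 2W-PSCs and -0.48 (-1.18 to 0.23) from 2W-PSCs to 3W-PSCs, and neither passed (edgeR adjusted p = 0.941 and 0.382). Of its exonic bases, 135 are shared on the same strand with *1700028N14Rik*.

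Among the TRAF and cIAP genes, *Traf1* rose from very low counts. *Traf1*, which encodes a TRAF without the RING domain of its relatives and lies at chr2:34941750-34961772 on the minus strand, had 23, 35, 14 and 11 counts in 3W-PSCs. It had 0, 0, 0 and 2 counts in 2W-PSCs and 0, 1, 0 and 0 counts in mono-PSCs. All 4 3W-PSC libraries were thus above all 8 libraries of the other cultures. Summed over libraries, 83 counts against 2 gave a ratio of 30.98 over 2W-PSCs (95% exact interval 8.31 to 260) and 83 against 1 gave a ratio of 64.6 over mono-PSCs (11.3 to 2582), intervals that cover counting error only. The fitted log2 fold change over 2W-PSCs was 4.67 ± 0.95 (SE, edgeR adjusted p = 0.00809), rising to 7.19 without 2W-PSC replicate 4, the library with the 2 counts, and falling to 2.95 with a prior count of 2, below the 3.70 of *Tnfaip3* under that setting. Against mono-PSCs it was 5.47 ± 1.02 (edgeR adjusted p = 0.000325), and 7.25 without mono-PSC replicate 2. *Traf1* passed in all 13 alternative fits that tested it in each of these comparisons.

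*Birc3*, the gene of the ubiquitin ligase cIAP2 at chr9:7848699-7873186 on the minus strand, was at 19.1, 13.3, 10.6 and 6.76 CPM in 3W-PSCs. It was at 0.985, 0, 3.66 and 2.09 in 2W-PSCs and at 5.09, 1.37, 1.07 and 1.21 CPM in mono-PSCs. Every 3W-PSC library lay above every library of the other cultures, with mono-PSC replicate 1 nearest to them. The log2 fold change was 2.82 ± 0.63 over 2W-PSCs (SE, edgeR adjusted p = 0.0165) and 2.51 ± 0.47 over mono-PSCs (edgeR adjusted p = 0.000719). Over 2W-PSCs the call ended without 3W-PSC replicate 1 (edgeR adjusted p = 0.0668), without 3W-PSC replicate 2 (0.0590) or without 2W-PSC replicate 4 (0.0502), and the log2 fold change was 3.47 without 2W-PSC replicate 3. Over mono-PSCs it passed in all 14 alternative fits that tested it, with a log2 fold change of 3.33 without mono-PSC replicate 1.

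*Birc2*, the neighbouring gene of the related ligase cIAP1, had a mean (± SD, n = 4) of 27.5 ± 2.04 CPM in 3W-PSCs, against 23.9 ± 6.61 in 2W-PSCs and 24.7 ± 2.96 in mono-PSCs. Its log2 fold change between 3W-PSCs and 2W-PSCs was 0.20 (edgeR adjusted p = 0.607). The ratio of *Birc3* to *Birc2* counts, again chosen after the levels were seen, was 0.252 to 0.637 in 3W-PSCs, 0 to 0.184 in 2W-PSCs and 0.0385 to 0.246 in mono-PSCs, so the 3W-PSC libraries lay above the others. Of the 75-base windows in the last 500 bases of *Birc3* transcripts, 3.54% also occur in *Birc2*, *Gm43392* or *Gm7019*, so a small part of these reads cannot be assigned to 1 gene.

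*Traf3*, which brings NIK to its ubiquitin ligase and lies at chr12:111166370-111267153 on the plus strand, was at 24.4, 38.6, 14.9 and 28.3 CPM in 3W-PSCs, 13.7, 19.9, 10.99 and 13.2 in 2W-PSCs and 15.6, 15.1, 6.21 and 13.2 CPM in mono-PSCs. In 3W-PSCs, 3 libraries lay above all others, and replicate 3 lay within the range of both other cultures. *Traf3* was higher in 3W-PSCs, at a log2 fold change over mono-PSCs of 1.08 ± 0.30 (SE, edgeR adjusted p = 0.0130), a call that ended without 3W-PSC replicate 2 (adjusted p = 0.0647). Against 2W-PSCs the log2 fold change was 0.89 ± 0.30 and did not pass (edgeR adjusted p = 0.0855). It passed there without 2W-PSC replicate 2 (adjusted p = 0.0136) or without 3W-PSC replicate 3 (adjusted p = 0.0439).

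*Traf2*, the adaptor of TNF receptor complexes at chr2:25517982-25546940 on the minus strand, had overlapping levels in the 3 cultures. The means (± SD, n = 4) were 9.24 ± 2.60 CPM in 3W-PSCs, 7.47 ± 4.54 in mono-PSCs and 6.06 ± 4.01 in 2W-PSCs, with single libraries between 2.07 and 13.7 CPM. Its log2 fold change of 0.60 from 2W-PSCs to 3W-PSCs had a 95% confidence interval of -0.38 to 1.59 and did not pass (edgeR adjusted p = 0.432).

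Of the feedback inhibitors, *Tnfaip3* had the smallest adjusted p of the 10 genes in both comparisons with 3W-PSCs. *Tnfaip3*, which encodes the ubiquitin-editing enzyme A20 and lies at chr10:19000910-19015657 on the minus strand, was at 28.02, 14.1, 42.3 and 12.6 CPM in 3W-PSCs, from 211, 122, 332 and 97 counts. It was at 1.83, 0.491, 2.87 and 0.963 in 2W-PSCs and at 2.11, 0.979, 0.178 and 1.09 CPM in mono-PSCs, from 1 to 18 counts a library. The lowest 3W-PSC library was above the highest library of both other cultures. The log2 fold change was 3.91 ± 0.53 over 2W-PSCs (SE, 15.0-fold, edgeR adjusted p = 0.00115) and 4.44 ± 0.49 over mono-PSCs (21.8-fold, edgeR adjusted p = 3.47e-06). *Tnfaip3* passed in all 14 alternative fits that tested it in each of these comparisons.

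*Cyld*, the gene of a deubiquitinase at chr8:88697028-88751945 on the plus strand, had its lowest mean in 2W-PSCs. It was at 87.8, 73.2, 69.6 and 57.2 CPM in mono-PSCs, 60.1, 55.4, 52.1 and 53.0 in 2W-PSCs and 75.3, 79.0, 79.4 and 80.0 CPM in 3W-PSCs. All 3W-PSC libraries lay above all 2W-PSC libraries and within the range of mono-PSCs. The log2 fold change was 0.51 ± 0.14 over 2W-PSCs (SE, 1.42-fold, edgeR adjusted p = 0.0416), -0.37 ± 0.19 from mono-PSCs to 2W-PSCs (edgeR adjusted p = 0.778) and 0.12 ± 0.16 from mono-PSCs to 3W-PSCs (edgeR adjusted p = 0.609). The call over 2W-PSCs was narrow, and ended with no filter on low counts (adjusted p = 0.0908) or with DESeq2's size factors in edgeR (adjusted p = 0.0507). With libraries left out, it was kept without 2W-PSC replicate 2 (adjusted p = 0.0176) and ended, in adjusted p, at 0.0561 without 2W-PSC replicate 1, 0.0669 without 2W-PSC replicate 3, 0.119 without 2W-PSC replicate 4, 0.0983 without 3W-PSC replicate 1, 0.124 without 3W-PSC replicate 2, 0.0912 without 3W-PSC replicate 3 and 0.114 without 3W-PSC replicate 4.

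The ratio of *Tnfaip3* to *Cyld* counts, chosen after the levels were seen, was 0.157 to 0.532 in 3W-PSCs, 0.00885 to 0.0550 in 2W-PSCs and 0.00255 to 0.0240 in mono-PSCs. In an exact permutation test of mean log2 CPM (two-sided), *Traf1*, *Birc3*, *Tnfaip3* and *Cyld* each gave an unadjusted p of 0.0286 between 3W-PSCs and 2W-PSCs, the smallest that 4 libraries against 4 allow. *Traf1*, *Birc3* and *Tnfaip3* gave the same unadjusted p in this exact permutation test against mono-PSCs. Libraries that do not overlap between 2 cultures give this p by construction, so it restates the separation given above and adds no further evidence.

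**Figure D3:**
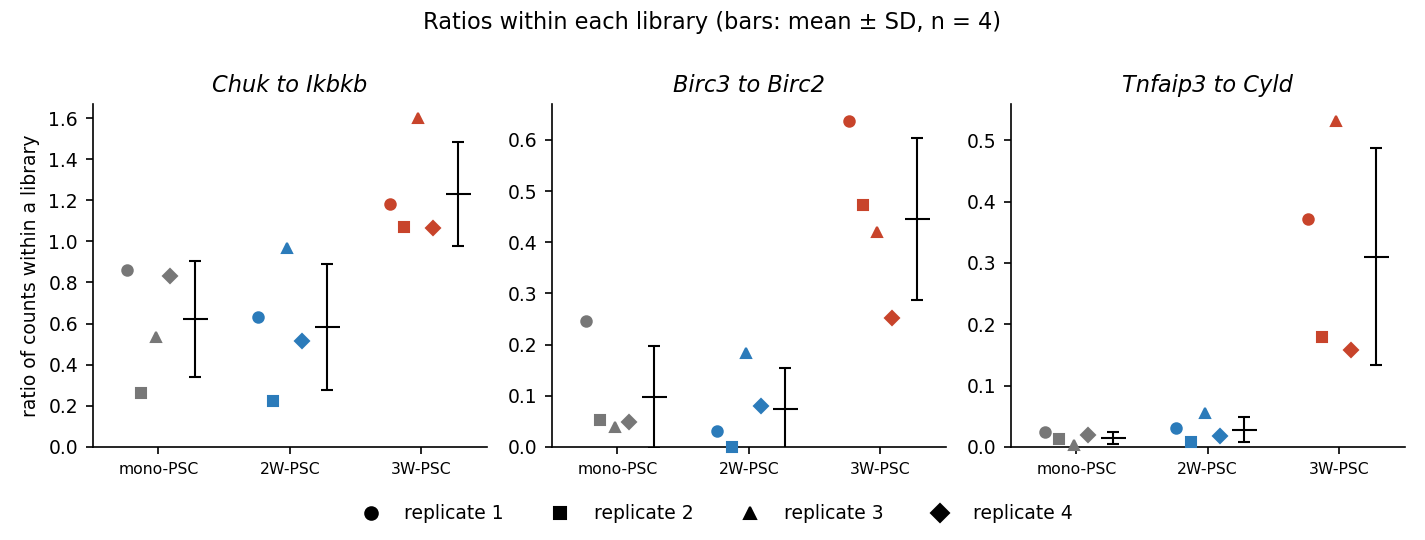
Ratio of the counts of *Chuk* to *Ikbkb*, *Birc3* to *Birc2* and *Tnfaip3* to *Cyld* within each library (vertical axes, starting at 0) in the 3 cultures, with bars for the mean ± SD of 4 libraries. In each panel all 3W-PSC libraries lie above all mono-PSC and 2W-PSC libraries, and for *Tnfaip3* to *Cyld* the lowest 3W-PSC ratio is 0.157 against a highest 2W-PSC ratio of 0.0550.

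Among the 3W-PSC libraries, replicate 4 had the highest macrophage marker sum, 51.3 CPM against 12.3 to 20.4 CPM in the others, as well as the lowest levels of *Tnfaip3*, *Birc3*, *Traf1* and *Chuk*. The same library had the highest level among 3W-PSCs of *Cyld* (80.0 CPM) and *Ikbkg* (23.3 CPM), and lay between the extremes for *Ikbkb*, *Map3k14*, *Traf2* and *Traf3*. Leaving it out gave log2 fold changes over 2W-PSCs of 3.03 for *Birc3* and 4.87 for *Traf1*, and both passed (edgeR adjusted p = 0.0272 and 0.0176). The 3W-PSC libraries had from 1 to 4 of the 12 macrophage markers at 0, against 7 to 9 in the 2W-PSC and mono-PSC libraries. *Mpeg1* was called higher over 2W-PSCs (3.77 on the log2 scale, edgeR adjusted p = 0.00499), as were *Mpeg1* and *Csf1r* over mono-PSCs. In both comparisons *Mpeg1* passed the filter on low counts through its 3W-PSC libraries, as did *Csf1r* against mono-PSCs. *Csf1r* did not pass over 2W-PSCs (0.074, edgeR adjusted p = 0.965). Its mean (± SD, n = 4) was 2.31 ± 0.55 CPM in 3W-PSCs and 2.35 ± 3.05 in 2W-PSCs, which had no macrophages in culture. The epithelial marker sum was high in 2W-PSCs too, where *Tnfaip3*, *Birc3* and *Traf1* were low. The sort left out cells with TagBFP, and how far RNA of macrophages contributed to the levels of the 10 genes was not tested beyond these values.

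The genes around the IKK complex were taken from lists of the pathway. In these lists *Rnf31*, *Tnip3* and *Bcl3*, like *Traf1*, passed the filter on low counts through their 3W-PSC libraries. Hardly any call but higher was therefore open to them. The counts of each list stand beside the shares of all genes tested that were called higher. These were 5.73% between 3W-PSCs and 2W-PSCs, 0.839% between 2W-PSCs and mono-PSCs and 13.4% between 3W-PSCs and mono-PSCs. Of the receptors that feed the IKK complex, 4 of 10 tested were higher in 3W-PSCs than 2W-PSCs and 0 were lower, with a median log2 fold change of 0.50. They were *Tlr2*, the receptor for bacterial lipoproteins (log2 fold change 3.04, edgeR adjusted p = 0.000181), *Il1rap*, the shared chain of the IL-1 receptors (1.42, 0.00380), *Tlr3*, the receptor for double-stranded RNA (1.44, 0.0106), and *Tnfrsf1a*, the main TNF receptor (0.80, 0.0308). *Tnfrsf1b*, the other TNF receptor, did not pass (0.62, 0.0625), but was the receptor called between 2W-PSCs and mono-PSCs (1.25, 0.0143). Against mono-PSCs, 6 of the 10 were higher.

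Most of their ligands were too low in the sorted PSCs to be tested. Of 10 ligand genes, *Tnfsf12*, which encodes TWEAK, was the 1 with enough counts to be tested, and it did not pass in 3W-PSCs against 2W-PSCs (0.55 on the log2 scale, edgeR adjusted p = 0.554). *Tnf*, named here after its values were seen, had 0 counts in all mono-PSC and 2W-PSC libraries and 8 counts in 3W-PSCs together.

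Of the receptor adaptors and ubiquitin ligases, 2 of 13 were higher in 3W-PSCs than 2W-PSCs and 0 lower, with a median log2 fold change of 0.16. These were *Myd88*, the adaptor of Toll-like and IL-1 receptors (1.15, edgeR adjusted p = 0.00522), and *Rnf31*, the catalytic subunit of the linear ubiquitin ligase (2.19, 0.0483). Of the kinases upstream of or related to IKK, 1 of 10 was higher and 0 lower, with a median of 0.49, and this was *Ikbke*, an IKK-related kinase (1.83, edgeR adjusted p = 0.0319). Its levels overlapped, at 7.76 to 26.7 CPM in 3W-PSCs and 3.10 to 9.32 CPM in 2W-PSCs. *Map3k7*, the gene of the IKK-activating kinase TAK1, did not pass (0.50, edgeR adjusted p = 0.0876).

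Of 12 other brakes on the pathway, 4 were higher and 0 lower, with a median log2 fold change of 0.53. *Nfkbia*, the gene of IκBα, rose (3.08, edgeR adjusted p = 0.000370), and so did the A20-binding partners *Tnip3* (3.81, 0.00630) and *Tnip1* (1.51, 0.00937) and the RNase gene *Zc3h12a* (1.79, 0.0180). *Spata2*, which links CYLD to the ubiquitin ligase complex, did not pass (1.22, 0.0969). Of the NF-κB subunits and IκB proteins, a list that also holds *Nfkbia*, 9 of 10 tested were higher and 0 lower, with a median of 1.30. Between 2W-PSCs and mono-PSCs none of the adaptors, kinases, brakes or subunits was called. Against mono-PSCs, 3 of 13 adaptors and ligases, 2 of 10 kinases, 5 of 12 brakes and 9 of 10 subunits and IκB proteins were higher in 3W-PSCs. None was lower, and over all 11551 genes tested 13.4% were called higher and 13.0% lower.

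**Figure D4:**
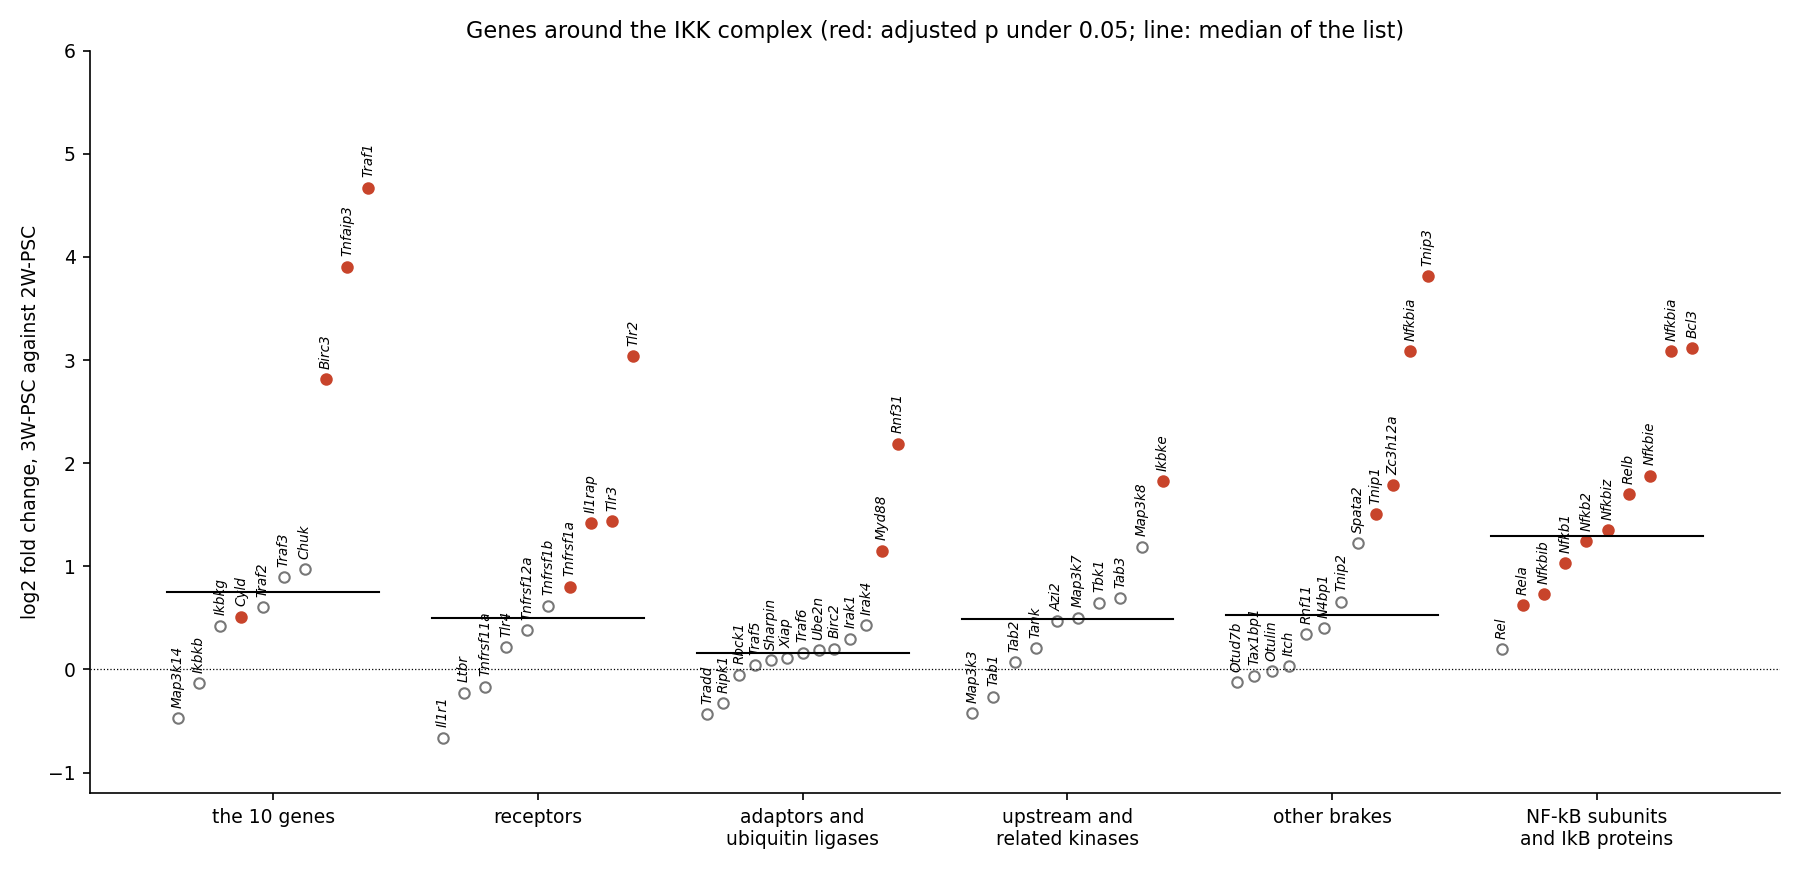
Log2 fold change between 3W-PSCs and 2W-PSCs (vertical axis) for the tested genes of each list, ordered by value within a list, with red filled points for an adjusted p under 0.05 and a line for the median of the list. *Traf1*, *Tnfaip3*, *Tnip3*, *Nfkbia*, *Tlr2* and *Bcl3* lie above 3, *Cyld* is a red point below the uncalled *Traf2*, *Traf3* and *Chuk*, and the line of the adaptors and ligases is the lowest, at 0.16.

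Other genes followed levels like those of the called genes. Likeness was taken as the mean absolute difference in log2 CPM over the 12 libraries, each gene centred on its own mean, among 11048 genes tested in all comparisons, and the points share cultures and libraries. *Traf1*, *Birc3* and *Tnfaip3* were too low to be tested between 2W-PSCs and mono-PSCs. Other genes not tested there, such as *Tnip3* and *Bcl3*, were outside this pool, so closer genes may have been missed. Closest to *Tnfaip3* were *Hmga1* (0.52), *Nfkbia* (0.52) and *Adamts7* (0.60). Closest to *Birc3* were *Pik3r5* (0.47), *Pnrc1* (0.47) and *Socs3* (0.48), and *Pik3r5* stood at 12.2 to 19.9 CPM in 3W-PSCs and 0 to 5.09 CPM in 2W-PSCs. *Traf1* was nearest to *Gbp2* (0.34), *Rsad2* (0.35) and *Ccl5* (0.40), of which *Ccl5*, a chemokine gene, was at 346 to 414 CPM in 3W-PSCs and 19.99 to 45.1 CPM in 2W-PSCs. For *Traf1* the prior count of 2 placed libraries with 0 counts at a log2 CPM of -1.74, which narrows its range and limits this likeness. *Cyld* was nearest to *Tpd52* (0.11), *Srxn1* (0.11) and *Grb2* (0.12), which also had their lowest means in 2W-PSCs. *Chuk* was nearest to *Nadk* (0.14), *Dse* (0.16) and *Snrnp70* (0.19), and *Traf3* to *Dicer1* (0.18), *Otud4* (0.18) and *Trim56* (0.21).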

How the data were processed

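Sorted PSCs of 3 cultures (4 libraries each, 12 in all) were measured. The authors made QuantSeq 3′ FWD libraries, read single ends, trimmed the reads, used STAR for alignment to GRCm38 and took gene counts with featureCounts. The values they deposited are whole-number counts without normalisation, although their methods speak of normalised read counts. The strand setting and the use of molecular identifiers are not given in the sources used here, so counts may include PCR copies. The exact intervals of the *Traf1* count ratios cover counting error only, whereas the edgeR intervals also take in the spread between libraries.

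From these counts, cultures were compared in pairs with edgeR 4.0.16 under R 4.3.3 (TMM, filterByExpr, glmQLFit and glmQLFTest on the 8 libraries of the comparison, no block, prior count 0.125). Benjamini-Hochberg adjustment covered every gene tested, with calls at an adjusted p under 0.05. DESeq2 1.42.0 was an alternative, beside other scaling, filters, fits and prior counts and the omission of each library. The authors' test was DESeq2, which is not the main test here because counts were tested with edgeR throughout. For exact permutation tests and the likeness of genes, a prior count of 2 was added before log2 CPM were taken. On simulated counts for 3W-PSCs against 2W-PSCs, with 11372 genes, edgeR called 92% of genes changed 4-fold and 25% of those changed 2-fold, with 6.4% of calls false. Fewer genes were changed in the simulation than were called in the data, so these shares need not hold for the data.

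Replicate numbers were checked for pairing. Deviations of same-numbered mono-PSC and 2W-PSC libraries from their culture means correlated at 0.38, 0.30, 0.24 and 0.10, so these were taken as paired, from the data and not from the labels, since every pair was over 0.1. With 3W-PSCs only replicate 4 was over 0.1, at 0.17 with 2W-PSCs and 0.14 with mono-PSCs, so those numbers were not taken as pairs. No 2 libraries of a culture agreed within sampling noise.

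The genes named were all 10 members, up to 5 genes per pathway list by smallest p between 3W-PSCs and 2W-PSCs, and the 3 genes nearest to each called member. *Birc2*, *Tnf* and the macrophage markers *Mpeg1*, *Csf1r*, *Adgre1*, *Ptprc*, *Tyrobp*, *Laptm5*, *Cd52* and *Spi1* fall outside these and were named after their values were seen. So were the epithelial markers *Epcam*, *Cldn4*, *Cldn7* and *Esrp1* and the stellate cell and fibroblast markers *Lum* and *Des*. Members and lists were chosen with earlier results of these data known. *Otulin* and *Adgre1* were found through their older symbols *Fam105b* and *Emr1*. Positions come from GENCODE mouse release 21 and promoter windows from RefSeq (GRCm38.p6).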

Additional observations from a re-analysis of the deposited data

Results flagged for a closer look

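In 5 of 30 combinations of gene and culture, 1 library lay apart from the other 3 by Dixon's criterion, which chance meets in about 1 in 20 groups of continuous values. For *Birc3*, mono-PSC replicate 1 was high at 5.09 CPM, and without it *Birc3* had a log2 fold change of 3.33 between 3W-PSCs and mono-PSCs. For *Map3k14*, 2W-PSC replicate 3 was low at 6.21 CPM, with the other 2W-PSC libraries at 14.5 to 15.0 CPM. For *Ikbkg*, 3W-PSC replicate 3 was low at 19.9 CPM, a small distance in a culture that was otherwise close together. For *Traf1*, mono-PSC replicate 2 at 0.196 CPM and 2W-PSC replicate 4 at 0.321 CPM were the libraries with any count in their cultures, 1 and 2 counts, and a lone count among zeros meets the criterion by construction.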

How the results depend on the processing

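With a minimum of 10 counts in every library, *Traf1*, *Birc3* and *Tnfaip3* were not tested, and the members called were 1 between 3W-PSCs and 2W-PSCs and 2 between 3W-PSCs and mono-PSCs, in place of 4 and 5. Over the whole table, 617 of 9706 and 1296 of 10038 genes were called higher with that minimum. With all 12 libraries in one fit, in which *Traf1* was not tested, 3 were called between 3W-PSCs and mono-PSCs, beside 1078 of 11776 genes called higher. With the replicate number as a block, 2 were called between 3W-PSCs and 2W-PSCs (*Traf1* and *Tnfaip3*), beside 455 of 11513 genes called higher. The block changed no call of the members in the other comparisons, 2W-PSCs against mono-PSCs included, where the numbers paired the libraries. DESeq2 called 5 and 5 (beside 1788 of 17876 and 3416 of 17817 genes over the whole table), and edgeR with DESeq2's size factors 3 and 5 (beside 1211 of 11513 and 3092 of 11551 genes). With libraries left out in turn, the members called were 2 to 6 between 3W-PSCs and 2W-PSCs (2 without 3W-PSC replicate 1, 3W-PSC replicate 2 or 2W-PSC replicate 4, and 6 without 2W-PSC replicate 2, with 497 to 2107 genes called over the whole table in these fits), 4 to 5 between 3W-PSCs and mono-PSCs, and 0 in every fit between 2W-PSCs and mono-PSCs.

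The changes of direction were all in genes that were not called in the comparison concerned. *Ikbkg* from mono-PSCs to 2W-PSCs had a log2 fold change of -0.021 without a filter, -0.0033 with the minimum of 10 counts and -0.0087 with all 12 libraries in one fit. With libraries left out, log2 fold changes from mono-PSCs to 2W-PSCs ran from -0.35 to 0.15 for *Chuk*, -0.14 to 0.17 for *Ikbkb*, -0.15 to 0.13 for *Ikbkg*, -0.78 to 0.16 for *Traf2* and -0.0082 to 0.32 for *Traf3*. *Ikbkb* ran from -0.28 to 0.036 between 3W-PSCs and 2W-PSCs and from -0.26 to 0.039 between 3W-PSCs and mono-PSCs, and *Map3k14* from -0.11 to 0.44 between 3W-PSCs and mono-PSCs. The cause of these changes was not tested. Low counts limit the size of the *Traf1* change, and a gene that did not pass is not shown to be unchanged, since the simulation recovered few 2-fold changes.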
